A study of Homo sapiens with 6 samples.

Results

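The steroid receptors ESR1 and PGR and the luminal lineage transcription factors GATA3, FOXA1, SPDEF, TFAP2A, TFAP2B, TFAP2C and ELF3 were followed over 3 groups of BT474 cells, a HER2-positive breast cancer line that also carries the estrogen receptor. Every probe whose gene name in the array files equalled 1 of these 9 symbols was taken, which gave 14 of 58201 probes, or 9 of 43317 gene names. Each group was measured on 2 one-color Agilent arrays. Control cells (labeled MOCK) were BT474 transfected with an empty pcDNA3.1 plasmid, BT474-Var1 cells carried variant 1, the long form of the long noncoding RNA NR2F1-AS1, and BT474-Var4 cells carried variant 4, the short form. The labels call the plasmid pcDNA3.1 in every group, but the study's methods put variant 1 in pcDNA3.1/Hygro(+) and variant 4 in pcDNA3.1-P2A-eGFP, so that variant and plasmid backbone cannot be told apart between BT474-Var1 and BT474-Var4 cells. All groups were kept in RPMI-1640 with heat-inactivated FBS. The cells, Control included, were stable transfectants that had been selected with an antibiotic. The study describes a fall to a few cells and later colonies for the 2 variants, and does not describe this for Control. That outgrowth and the transfected variant cannot be told apart in the comparisons against Control. Which of the study's empty plasmids the Control cells of the arrays carried is not given in the sources used here. Nothing says that the 2 arrays of a group came from separate cultures, so p-values measure the spread between arrays, which may be technical.

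ESR1 encodes estrogen receptor alpha and PGR the progesterone receptor, hormone-activated transcription factors, and PGR is itself a classical gene induced through the estrogen receptor. FOXA1 and GATA3 open chromatin and bind beside the estrogen receptor in luminal breast cells, and both are needed for the luminal lineage. The AP-2 factors TFAP2A, TFAP2B and TFAP2C bind many of the same enhancers, and SPDEF and ELF3 are ETS-family factors of epithelial cells.

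On the arrays, 47.6% to 57.5% of probes were marked well above background. A level is the log2 of a probe's processed intensity minus the 75th percentile of all non-control probes of the same array, so that 0 is that percentile. Levels of different probes depend on how each probe binds and are not compared with each other. The transfected RNA had 4 probes. Probes A_22_P00006112 and A_19_P00320140 read -0.19 and -0.22, and -0.42 and -0.51, in BT474-Var1 cells, against at most -3.61 on the other arrays. Probe A_24_P51080 read 1.67 and 1.501 in BT474-Var4 cells and at most -4.25 elsewhere. The remaining probe, A_22_P00006111, read -1.69 and -1.52 in BT474-Var1 and 3.01 and 3.02 in BT474-Var4 cells, against at most -4.16 in Control, so that these values followed the labels. All 7 luminal epithelial markers, among them KRT8, KRT18 and EPCAM, were well above background on all 6 arrays. Their summed linear level was 2046 to 2079 times the 75th percentile in Control, 2578 to 2611 in BT474-Var1 and 2143 to 2159 in BT474-Var4. In BT474-Var1 3 of them were higher than in Control (KRT8, MUC1 and KRT19, the brightest) and 2 lower (EPCAM and CDH1). In BT474-Var4 2 were higher (MUC1 and KRT7) and 0 lower. Of 8 basal or myoepithelial markers 1 was well above background on all 6 arrays (MYLK) and 4 on none (KRT5, KRT6B, ACTA2 and CNN1). KRT14, a keratin of basal cells, was not well above background in Control, and BT474-Var1 cells had at least 2.43-fold and BT474-Var4 cells at least 1.94-fold more (adjusted p = 0.00484 and 0.0105), a bound taken against the dimmest probe well above background on the Control arrays or its own level where higher. The summed linear level of the 8 basal markers was 0.542 to 0.547 times the 75th percentile in Control, 0.687 to 0.693 in BT474-Var1 and 0.714 to 0.718 in BT474-Var4. The summed linear level of the 8 mesenchymal or stromal markers was 21.2 to 22.1 times the 75th percentile in Control, 13.5 to 13.9 in BT474-Var1 and 27.2 to 29.98 in BT474-Var4 cells, with COL3A1 and ZEB2 above background on no array on their probes used here. The brightest of these probes, that of VIM, weighs most in the sum. VIM fell in BT474-Var1 by -1.03 ± 0.08 (adjusted p = 0.00396) and was the 1 lower of 6 tested, while TWIST1 and COL1A1 were the 2 higher. In BT474-Var4 3 were higher than in Control (CDH2, TWIST1 and COL1A1). Of all gene names 34.9% and 24.8% passed in these comparisons. The array held 5 immune markers, and their sum lay between 1.53 and 1.71 on every array. The part of these markers in the results below was not tested. The 6 arrays lay on 1 slide. Control lay at positions 1 and 2 of line 1, BT474-Var4 at positions 3 and 4 of line 1, and BT474-Var1 at positions 3 and 4 of line 2. Slide position and group thus cannot be told apart in any of the comparisons.

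Because a gene can give a different answer at different places along its transcript, the probes of ESR1 and PGR are shown by the first 30 of their 60 bases, read 5′ to 3′, in order from the 5′ end. Positions are on hg19 as the files give them, and capitals mark the start codon of ESR1, with which its first probe opens.
ESR1 A_24_P383478, chr6:152129048-152129107, plus strand: ATGaccatgaccctccacaccaaagcatct
ESR1 A_33_P3379356, chr6:152265523-152265582, plus strand: atactctattccgagtatgatcctaccaga
ESR1 A_23_P309739, chr6:152423908-152423967, plus strand: tttttgcatccaattgtgcctgaactttta
PGR A_23_P138938, chr11:100912709-100912768, minus strand: ctcatcaaggcaattggtttgaggcaaaaa
PGR A_32_P49199, chr11:100900858-100900917, minus strand: actcacgccctatttagttattaatgctac
In the transcripts named by the files, the ESR1 probes began at bases 234, 1345 and 5828 and the PGR probes at bases 3296 and 12474, so the last probe of each gene lay far downstream of the others. Along the genome the outer ESR1 probes were 294860 bases apart and the PGR probes 11851 bases apart. No annotation of the build was used here, so exon and UTR are not assigned.

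Of the 14 probes, 13 from 8 genes were well above background on all 6 arrays and were tested. The exception was the single probe of TFAP2B, A_33_P3317163, which was well above background on no array. A probe passed at an adjusted p under 0.05 in limma's moderated test, fitted on 31858 probes. In BT474-Var1 against Control, 5 of 13 probes passed, against 34.4% of all tested probes, with ELF3 higher and PGR, FOXA1 and TFAP2C lower. In BT474-Var4 against Control, 7 of 13 passed, against 24.2% of all, with ELF3 higher and PGR, ESR1, FOXA1 and SPDEF lower. Between the variants 8 of 13 passed, against 41.2% of all, with TFAP2C higher in BT474-Var4 and PGR, ESR1, GATA3, SPDEF and ELF3 lower. In a fit of only the probes well above background on all 6 arrays, as these 13 were, 43.4%, 32.6% and 48.4% of all passed in the same order. The 2 comparisons against Control use the same Control arrays. The median difference over the 13 probes was -0.05 in BT474-Var1, beside -0.04 over all tested probes, and -0.33 in BT474-Var4, beside -0.08. Between the variants it was -0.31, beside -0.03. Arrays of the groups did not overlap at 10, 12 and 11 of the 13 probes in the same order of comparisons, against 71.8%, 68.7% and 74.7% of all tested probes, so with 2 arrays a group a lack of overlap was common everywhere.

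PGR fell in both variants and most in BT474-Var4 cells, where it was down 2.33-fold to 2.49-fold. In RNA of whole cultures, less RNA per cell and fewer expressing cells cannot be told apart. Probe A_23_P138938 read 4.49 and 4.41 in Control, 4.01 and 3.92 in BT474-Var1 and 3.13 and 3.14 in BT474-Var4 cells. Probe A_32_P49199 read 4.77 and 4.77, 4.46 and 4.52, and 3.58 and 3.53 in the same order. Both probes thus ordered the groups as Control, BT474-Var1, BT474-Var4, with no overlap between any of them. The difference of BT474-Var4 from Control was -1.32 ± 0.06 (SE) on the log2 scale at the first probe (adjusted p = 0.00293) and -1.22 ± 0.05 at the second (adjusted p = 0.00262). These were the only member probes that changed by 2-fold or more against Control, as 3.17% of all tested probes did in that comparison and 3.94% in BT474-Var1. In BT474-Var1 the differences were -0.48 ± 0.06 (adjusted p = 0.00870) and -0.29 ± 0.05 (adjusted p = 0.0187). BT474-Var4 lay below BT474-Var1 cells by a difference of -0.83 ± 0.06 (adjusted p = 0.00231) and -0.93 ± 0.05 (adjusted p = 0.00148). Under all 15 other settings the differences of BT474-Var4 stayed past the threshold at both probes, at -1.36 to -1.16 from Control and -1.03 to -0.76 from BT474-Var1. The smaller difference of BT474-Var1 did not: at the first probe it was -0.44 without Control array A (adjusted p = 0.0528), and at the second it was -0.32 to -0.26 when 1 of the 4 arrays compared was dropped (adjusted p = 0.0562 to 0.0889). Quantile normalization gave -0.16 there (adjusted p = 0.0805).

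ESR1 was lower in BT474-Var4 cells at 2 of its 3 probes and did not pass at the third. At the downstream probe A_23_P309739 the level was 2.11 and 2.18 in Control, 1.95 and 2.09 in BT474-Var1 and 1.64 and 1.71 in BT474-Var4 cells. BT474-Var4 lay below both other groups, whereas the BT474-Var1 arrays lay just below Control. The difference of BT474-Var4 from Control was -0.47 ± 0.07 (adjusted p = 0.0176), and that from BT474-Var1 was -0.34 ± 0.07 (adjusted p = 0.0228). At the middle probe A_33_P3379356, a dim one, the levels were -1.86 and -2.21 in Control, -1.51 and -1.75 in BT474-Var1 and -2.86 and -2.91 in BT474-Var4. Here BT474-Var1 arrays lay above and BT474-Var4 arrays below both Control arrays. BT474-Var4 differed from Control by -0.85 ± 0.15 (adjusted p = 0.0232) and from BT474-Var1 by -1.25 ± 0.15 (adjusted p = 0.00563), a 2.38-fold lower level, where 6.86% of all tested probes differed by 2-fold or more. The probe at the start codon, A_24_P383478, read -0.49 and -0.59 in Control, -0.38 and -0.53 in BT474-Var1 and -0.60 and -0.59 in BT474-Var4. All 6 arrays lay close together, and the difference of BT474-Var4 from Control was -0.06 with a 95% interval of -0.26 to 0.14 (adjusted p = 0.618). In BT474-Var1 against Control no ESR1 probe passed, with differences of 0.08, 0.40 and -0.13 from the 5′ to the 3′ probe (adjusted p = 0.454, 0.104 and 0.238).

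The ESR1 calls against Control were lost when single arrays were left out. Without any 1 of the 4 arrays the downstream difference was -0.51 to -0.43 (adjusted p = 0.0646 to 0.0922). The middle probe gave -0.68 without Control array A (adjusted p = 0.0752), -0.87 without BT474-Var4 array A and -0.83 without array B (adjusted p = 0.0841 and 0.0958), and it did not pass in the methods' one-way analysis of variance (adjusted p = 0.0715). With another background correction, normexp, its difference shrank to -0.26 against Control and -0.41 against BT474-Var1, both still past the threshold. The same correction brought the middle probe past it in BT474-Var1 against Control, where the difference was 0.16 (adjusted p = 0.0423). Against BT474-Var1 the downstream difference was -0.31 without BT474-Var4 array A, -0.38 without BT474-Var4 array B and -0.28 without BT474-Var1 array B (adjusted p = 0.0914, 0.0641 and 0.0808).

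**Figure D1:**
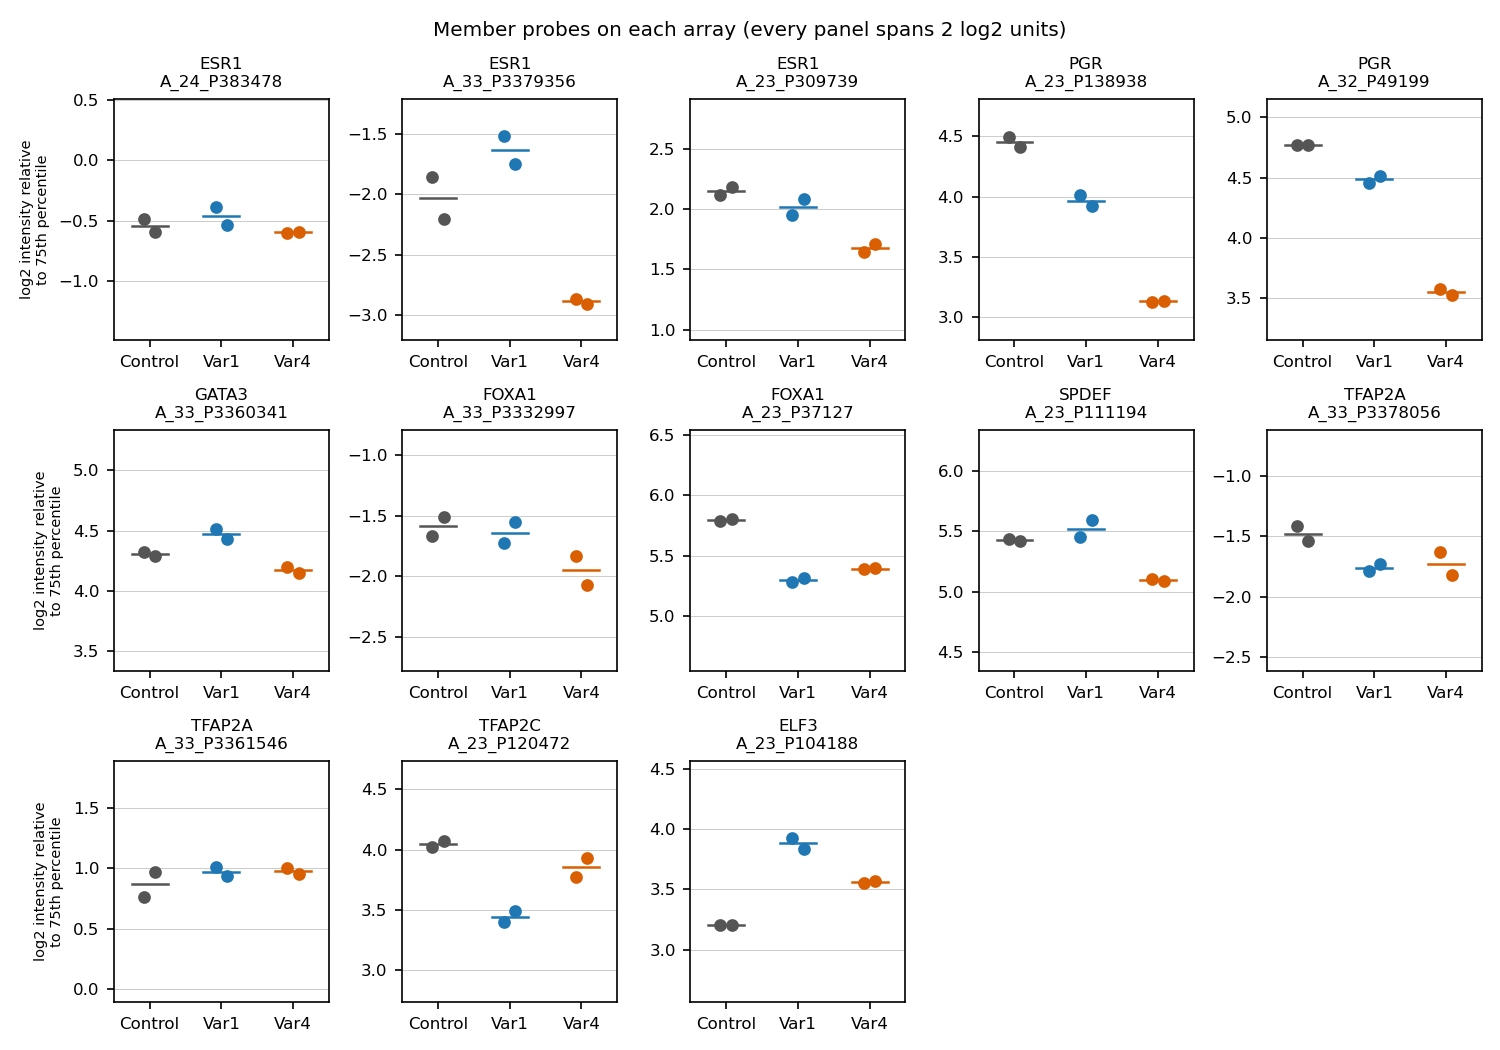
Level of each of the 13 tested probes on each array (points) with the group mean (line), in log2 intensity relative to the array's 75th percentile; every panel spans 2 log2 units. Both PGR probes step down from Control to BT474-Var1 to BT474-Var4, the 3 ESR1 probes are lowest in BT474-Var4, with the one at the start codon by the least, and ELF3 is lowest in Control.

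FOXA1 fell in both variants by about the same amount at its bright probe, and GATA3 passed between the variants but against Control in neither. FOXA1 probe A_23_P37127, which is spotted 10 times on each array, gave 5.78 and 5.80 in Control, 5.28 and 5.31 in BT474-Var1 and 5.39 and 5.40 in BT474-Var4. Both variants lay below Control, BT474-Var1 by -0.50 ± 0.05 (adjusted p = 0.00529) and BT474-Var4 by -0.40 ± 0.05 (adjusted p = 0.0108). The difference between the variants, 0.10 with a 95% interval of -0.03 to 0.22, did not pass (adjusted p = 0.179), though it did in the methods' one-way analysis of variance (adjusted p = 0.0331) and with normexp, at 0.15 (adjusted p = 0.0163). The fall in BT474-Var4 was -0.41 to -0.39 without any 1 of its or the Control arrays, with adjusted p = 0.0518 to 0.0697. The second probe, A_33_P3332997, is assigned to another transcript, ENST00000557418, begins at its base 100 and was dim. Its levels were -1.67 and -1.51 in Control, -1.73 and -1.55 in BT474-Var1 and -1.83 and -2.07 in BT474-Var4, and it passed in no comparison (adjusted p = 0.0943 to 0.756). The FOXA1 probes lay 4915 bases apart on chromosome 14.

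GATA3 had 1 probe, A_33_P3360341, with levels of 4.32 and 4.29 in Control, 4.52 and 4.43 in BT474-Var1 and 4.20 and 4.15 in BT474-Var4. The BT474-Var1 arrays were above and the BT474-Var4 arrays below both Control arrays. BT474-Var4 was lower than BT474-Var1 by a difference of -0.30 ± 0.06 (adjusted p = 0.0167). Against Control, BT474-Var1 differed by 0.17 ± 0.06 (adjusted p = 0.0844) and BT474-Var4 by -0.13 ± 0.06 (adjusted p = 0.155). Quantile normalization gave 0.29 for the first of these (adjusted p = 0.0201). With trend and robust estimation in limma's eBayes both passed (adjusted p = 0.00816 and 0.0328). The call between the variants was lost without BT474-Var4 array A, at -0.32, BT474-Var4 array B, at -0.28, or BT474-Var1 array A, at -0.26 (adjusted p = 0.0539, 0.0722 and 0.0690).

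Of the AP-2 factors, TFAP2C, the main one of luminal breast cells, fell in BT474-Var1 cells. Its probe A_23_P120472 read 4.03 and 4.07 in Control, 3.403 and 3.49 in BT474-Var1 and 3.77 and 3.93 in BT474-Var4, and no groups overlapped. BT474-Var1 was 1.52-fold below Control, a difference of -0.60 ± 0.08 (adjusted p = 0.00848), which was -0.58 without Control array B (adjusted p = 0.0522). The BT474-Var4 arrays lay between, at a difference from Control of -0.20 ± 0.08 (adjusted p = 0.138) and from BT474-Var1 of 0.41 ± 0.08 (adjusted p = 0.0174). The latter was 0.33 without BT474-Var4 array B and 0.36 without BT474-Var1 array A (adjusted p = 0.0601 and 0.0750).

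TFAP2A passed in no comparison at either probe. At A_33_P3361546 the levels were 0.76 and 0.97 in Control, 1.01 and 0.93 in BT474-Var1 and 1.00 and 0.95 in BT474-Var4, so that all groups overlapped. At A_33_P3378056, assigned to transcript ENST00000478375, they were -1.41 and -1.54, -1.79 and -1.73, and -1.63 and -1.82. The arrays of both variants lay below Control there, with differences of -0.28 ± 0.09 in BT474-Var1 and -0.25 ± 0.09 in BT474-Var4 (adjusted p = 0.0762 and 0.117), and quantile normalization brought the first past the threshold at -0.39 (adjusted p = 0.0329). The 95% intervals against Control at the first probe, -0.13 to 0.34 in BT474-Var1 and -0.12 to 0.34 in BT474-Var4, leave room for small changes. TFAP2B read between -6.40 and -4.60, under the dimmest probe that was well above background on each array, whose level was -4.51 to -3.60.

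The ETS factors moved differently from each other. ELF3, an epithelial ETS factor, was the only member that passed as higher than Control in the fit used here. Its probe A_23_P104188 gave 3.21 and 3.20 in Control, 3.92 and 3.84 in BT474-Var1 and 3.56 and 3.57 in BT474-Var4. The order was thus Control, BT474-Var4, BT474-Var1, with no overlap. The rise was 0.67 ± 0.05 in BT474-Var1, or 1.60-fold (adjusted p = 0.00436), and 0.36 ± 0.05 in BT474-Var4, or 1.28-fold (adjusted p = 0.0176). BT474-Var4 was below BT474-Var1 by -0.32 ± 0.05 (adjusted p = 0.0134). The rise in BT474-Var1 stayed past the threshold under all 15 other settings, at 0.61 to 0.79. That in BT474-Var4 was 0.35 to 0.36 without any 1 of its or the Control arrays (adjusted p = 0.0690 to 0.0909), and the difference between variants was -0.31, -0.32 and -0.28 without BT474-Var4 array A, BT474-Var4 array B or BT474-Var1 array A (adjusted p = 0.0568, 0.0559 and 0.0558).

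SPDEF, a prostate-derived and mammary luminal ETS factor, was lower in BT474-Var4 cells. Probe A_23_P111194 gave 5.44 and 5.42 in Control, 5.45 and 5.59 in BT474-Var1 and 5.11 and 5.09 in BT474-Var4. BT474-Var4 lay apart from the others, while BT474-Var1 array A exceeded the higher Control array by only 0.01. BT474-Var4 differed from Control by -0.33 ± 0.07 (adjusted p = 0.0317) and from BT474-Var1 by -0.42 ± 0.07 (adjusted p = 0.0109), and BT474-Var1 from Control by 0.09 with a 95% interval of -0.09 to 0.27. The call against Control was lost without any 1 of the 4 arrays, at -0.34 to -0.32 (adjusted p = 0.101 to 0.132), after quantile normalization, at -0.27 (adjusted p = 0.0506), in the methods' analysis of variance (adjusted p = 0.0584) and with the replicate letter as a block (adjusted p = 0.0654). Between the variants it was lost without BT474-Var4 array B, at -0.41 (adjusted p = 0.0526).

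**Figure D2:**
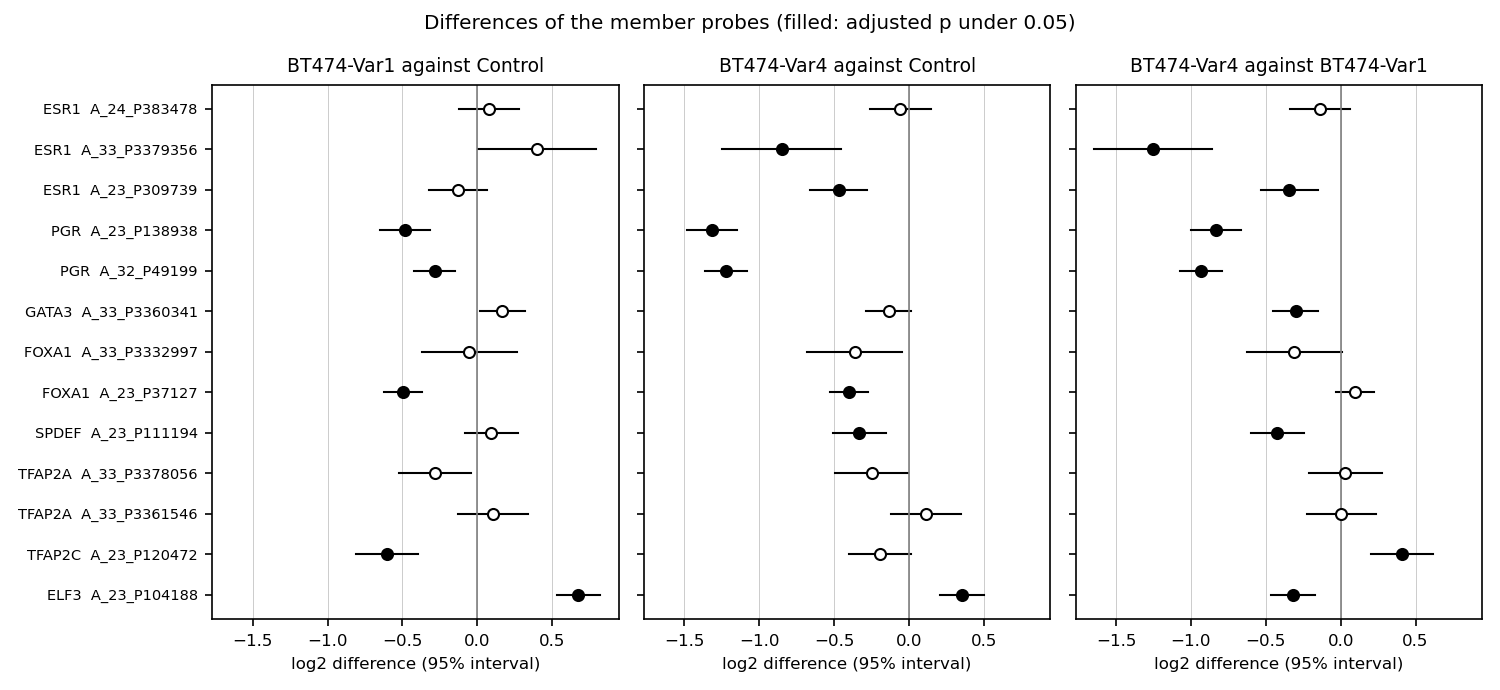
Log2 difference with its 95% interval for the 13 tested probes in each comparison, as fitted by limma; filled points passed an adjusted p under 0.05. PGR lies farthest below 0 against Control in BT474-Var4, at -1.32 and -1.22, and ELF3 is the only filled point above 0 in either comparison against Control.

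The genes around the receptors were read from 4 lists of 90 genes in all, with the brightest tested probe of each, and 85 were tested. In BT474-Var1 against Control 33 of 85 passed, 7 higher and 26 lower, beside 34.9% of all gene names read in the same way. In BT474-Var4 against Control 34 passed, 15 higher and 19 lower, beside 24.8%. Between the variants 47 passed, 30 higher in BT474-Var4 and 17 lower, beside 42.0%. Of all gene names, 20.9% were higher and 21.0% lower in BT474-Var4 than in BT474-Var1. The genes named below are those with the greatest rises and falls in each list.

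Among 12 other steroid and related nuclear receptors tested, 3 rose and 2 fell in BT474-Var1, and 2 rose and 1 fell in BT474-Var4. Of all gene names 34.9% and 24.8% passed in these comparisons. NR3C1, the glucocorticoid receptor, read 1.57 and 1.52 in Control, 2.63 and 2.51 in BT474-Var1 and 2.39 and 2.23 in BT474-Var4. Its rise was 1.03 ± 0.08 in BT474-Var1 and 0.77 ± 0.08 in BT474-Var4 (adjusted p = 0.00414 and 0.00832), and of its 3 tested probes 2 passed in the first and 1 in the second. GPER1, a membrane-bound estrogen receptor, was 2.997 and 3.10 in Control, 3.84 and 3.81 in BT474-Var1 and 4.30 and 4.21 in BT474-Var4, a rise of 0.78 ± 0.07 and 1.21 ± 0.07 (adjusted p = 0.00457 and 0.00333) that all 4 of its probes passed. PGRMC1, a heme-binding membrane protein, fell in BT474-Var1 by -0.36 ± 0.07 (adjusted p = 0.0217). The second estrogen receptor, ESR2, was not tested because neither of its 2 probes was above background on both arrays of a group.

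Of 22 tested coregulators and chaperones, 2 rose and 3 fell in BT474-Var1, and 1 fell in BT474-Var4, with 6 higher and 3 lower in BT474-Var4 than in BT474-Var1. The shares of all gene names that passed were 34.9%, 24.8% and 42.0% in the same order. CITED2, a CBP and p300 binding coactivator of AP-2 factors, rose in BT474-Var1 by 1.17 ± 0.05 (adjusted p = 0.00244) and CITED4 by 0.29 ± 0.05 (adjusted p = 0.0167). In the same cells NCOA3, a steroid receptor coactivator, changed by -0.63 ± 0.08 (adjusted p = 0.00731), and FKBP4, a chaperone partner of the receptors, by -0.42 ± 0.05 (adjusted p = 0.00643), although its other tested probe gave 0.02. KMT2D, a histone methyltransferase, was the gene that fell in BT474-Var4, by -0.39 ± 0.06 (adjusted p = 0.0163).

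Of 26 other luminal transcription factors tested, 2 rose and 7 fell in BT474-Var1, and 8 rose and 3 fell in BT474-Var4. All gene names gave 14.2% higher and 20.7% lower in the first comparison and 10.2% higher and 14.6% lower in the second. XBP1, a factor of the unfolded protein response that marks luminal tumors, was 8.52 and 8.51 in Control and 7.70 and 7.70 in BT474-Var4, a difference of -0.81 ± 0.05 (adjusted p = 0.00333). GRHL1 and OVOL1, epithelial factors, rose there by 0.76 ± 0.07 and 0.73 ± 0.06 (adjusted p = 0.00735 and 0.00581). LMO4, a LIM-domain partner of transcription factors, fell in both, by -0.75 ± 0.06 in BT474-Var1 and -0.39 ± 0.06 in BT474-Var4 (adjusted p = 0.00416 and 0.0166). The ETS factors ELF5 and EHF rose in BT474-Var1 by 0.34 ± 0.05 and 0.33 ± 0.08 (adjusted p = 0.0138 and 0.0353). The other tested probe of ELF5 gave 0.18 there and did not pass. ELF5 rose in BT474-Var4 as well, by 0.64 ± 0.05 (adjusted p = 0.00581), and was higher there than in BT474-Var1 by 0.30 ± 0.05 (adjusted p = 0.0150). EHF differed from Control by -0.25 ± 0.08 in BT474-Var4 (adjusted p = 0.0840) and was lower there than in BT474-Var1 by -0.58 ± 0.08 (adjusted p = 0.00753). ETS2 was not well above background on either BT474-Var1 array and was at least 1.90-fold lower there than in Control (adjusted p = 0.0126), a bound taken against the dimmest probe well above background on those arrays.

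Of 25 tested genes that the receptors and luminal factors are known to induce, 14 fell and 0 rose in BT474-Var1, and 14 fell and 5 rose in BT474-Var4. All gene names gave 20.7% lower and 14.2% higher in the first comparison and 14.6% lower and 10.2% higher in the second. The list's median difference was -0.30 in both, and no list was tested as a set. In BT474-Var4, SERPINA1, a protease inhibitor, went from 2.71 and 2.77 in Control to 1.19 and 1.14, a 2.97-fold lower level (difference -1.57 ± 0.05, adjusted p = 0.00203). SUSD3, a membrane protein of estrogen-driven cells, went from 5.82 and 5.86 to 4.56 and 4.39, or 2.57-fold lower (-1.36 ± 0.07, adjusted p = 0.00333). The ligands WNT4 and AREG rose in these cells by 0.95 ± 0.08 and 0.91 ± 0.05 (adjusted p = 0.00551 and 0.00343). The greatest falls in BT474-Var1 were of RET, a receptor tyrosine kinase, at -1.13 ± 0.05 (adjusted p = 0.00279), and KCNK5, a potassium channel, at -0.79 ± 0.07 (adjusted p = 0.00477). These genes were picked for the size of their change, so that both arrays of the variant lay outside the Control range adds nothing. Arrays did not overlap at 71.8% and 68.7% of all tested probes in BT474-Var1 and BT474-Var4 against Control.

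**Figure D3:**
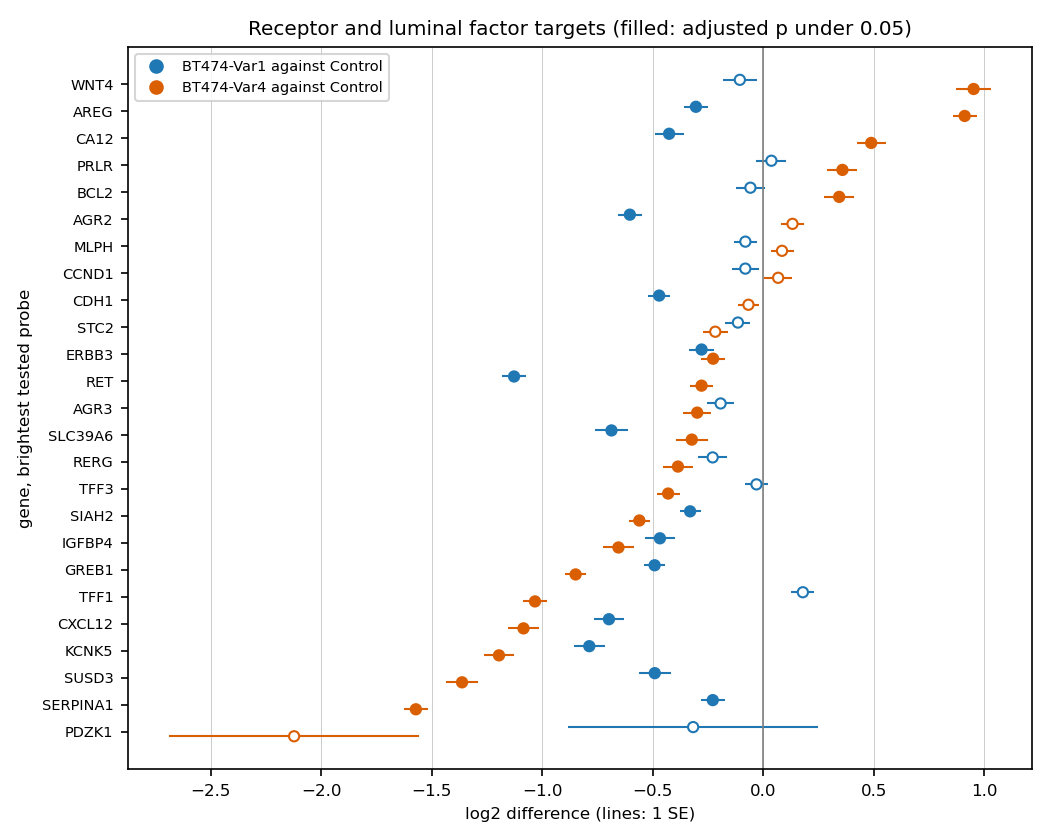
Log2 difference from Control, with 1 SE on each side, of the 25 tested target genes, sorted by the difference in BT474-Var4; filled points passed an adjusted p under 0.05. SERPINA1 and SUSD3 are the lowest filled points in BT474-Var4 and RET the lowest in BT474-Var1, while WNT4 and AREG are the highest in BT474-Var4. Both sets of points share the Control arrays.

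**Figure D4:**
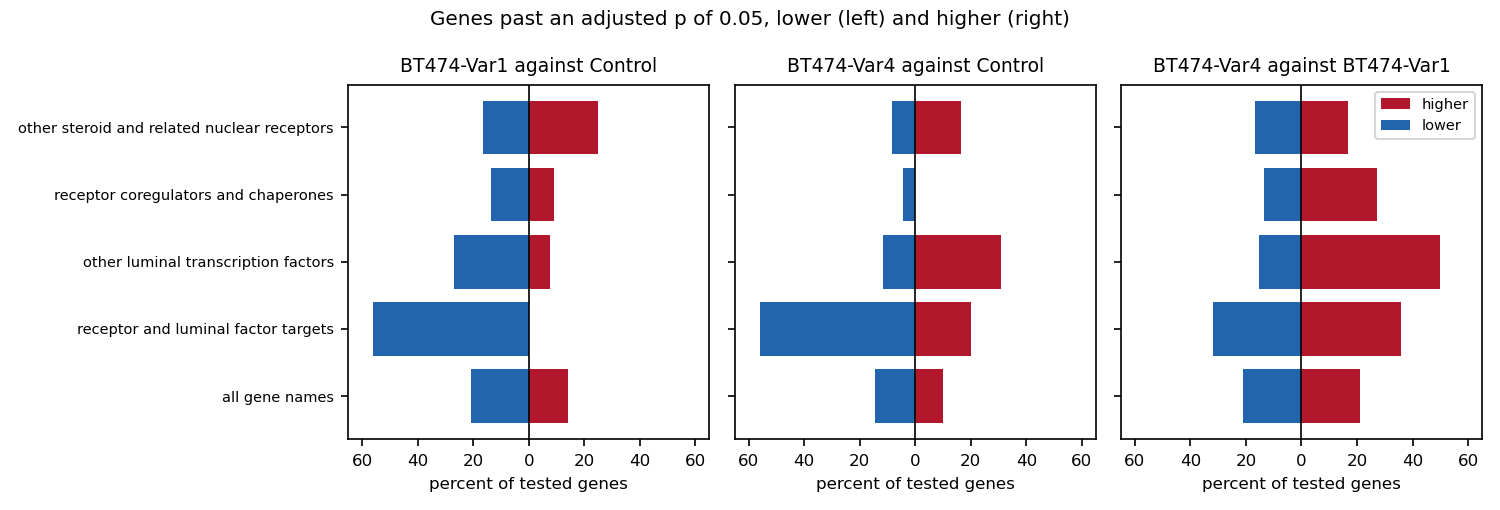
Share of tested genes in each of the 4 lists, and of all gene names, that passed an adjusted p under 0.05, with lower genes to the left of 0 and higher genes to the right, in percent. The target list has 14 of 25 genes lower in each comparison against Control and none higher in BT474-Var1.

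On the brightest tested probe of each member, PGR alone had group means that spanned 1 log2 unit or more, at 1.22, while the others spanned 0.11 to 0.67. The dimmer ESR1 probe A_33_P3379356, which spanned as much, was not used for this. PGR probe A_32_P49199 was compared over the 6 arrays with 3899 tested probes of other genes that spanned 1 log2 unit or more. Those most like it were CXCL17 (Pearson r = 0.9995), an RPL32 probe, A_21_P0000344 (r = 0.998), and an EEF1A1 probe, A_32_P44316 (r = 0.998). CXCL17, a mucosal chemokine, had group means of 2.496 in Control, 2.06 in BT474-Var1 and 0.44 in BT474-Var4. The median r over the compared probes was 0.31, and 19 exceeded 0.99. Since the 6 points form 3 pairs of replicate arrays, r mostly reflects the order and spacing of 3 group means.

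Promoter sequence from RefSeq on GRCh38.p14 was available for 8 of the 9 members, TFAP2C being the other, and the 250 bases before each listed start were searched on both strands. The estrogen response element GGTCANNNTGACC was in 0 of 8, beside 0.0399% of 35116 promoters. Its 5-base part GGTCA, which lies inside the full element, was in 3 (PGR, GATA3 and TFAP2A), beside 32.6%. AGAACA, the hexamer of the progesterone receptor's element, was in 1 (ESR1), beside 12.4%, and the AP-2 motif GCCNNNGGC in 2 (PGR and GATA3), beside 19.8%. The ETS motif AGGAAG was in 2 (GATA3 and SPDEF), beside 28.7%, and the GATA motif AGATAA and the forkhead motif TGTTTAC were in 0, beside 9.17% and 2.98%. Stretches of 30 bases are printed for PGR, ESR1 and GATA3, receptor genes and the factor with most motif matches, with each match in capitals.
PGR, chr11:101129232-101129261, minus strand: gagGCCAAGGGCaggagcTGACCagcgccg
ESR1, chr6:151656515-151656544, plus strand: gatTGTTCTgtgctttctttcagtcagcat
GATA3, chr10:8045107-8045136, plus strand: ggcGCCAGGGGCcGGTCAcatttcaggccg
In PGR and GATA3 the AP-2 match and the GGTCA match, which is read on the other strand in PGR, lie next to each other without overlap. A match is a run of letters, not a bound site, and the start listed for ESR1 is 1 of several that the gene uses.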

How the data were processed

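Cy3-labeled RNA was read on 6 one-color arrays. The authors used Feature Extraction 11.5.1.1 for background-subtracted spot values and shifted log2 values to the 75th percentile of each array in GeneSpring. The deposited array files hold the spot intensity on a linear scale, not normalized between arrays, and the deposited value table holds log2 values. Each column of the table matched its own array, with a median absolute difference from the values used here of at most 0.00716.

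The log2 of the processed intensity minus the array's 75th percentile over non-control probes was used. Outlier spots were left out (63 to 128 per array), 0 were saturated, and spots of a probe were averaged. A probe entered the test if both arrays of some group had it well above background, 31858 in all, and was fitted with limma 3.58.1 in R 4.3.3 (1 mean per group, 3 residual degrees of freedom), Benjamini-Hochberg adjustment and two-sided p-values. The number of arrays limits the precision. The fit was tested on simulated data. The array design number in the files differs from that in the methods. Named genes were every member probe, the 2 greatest rises and falls that passed in each list and comparison against Control, and the 3 probes most like a member. Of these, 1 gene is counted in the totals but not reported here. The members and lists were chosen with earlier results of these data known.

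The alternatives were quantile normalization, normexp correction (offset 50), a stricter filter on dim probes or none, the deposited table, a replicate block, the one-way analysis of variance named in the methods, a fit of the compared groups alone, trended and robust eBayes, and each array left out in turn, where the lone array of a group is assumed to vary like the others. For a given comparison, leaving out an array of the third group repeats the fit of the compared groups alone. The 15 other settings are therefore not all separate checks. The replicate letters do not pair arrays: deviations of same-letter arrays correlated at -0.01 to 0.05.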

Additional observations from a re-analysis of the deposited data

Results flagged for a closer look

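ESR1, SPDEF and GATA3 each had 1 probe with both BT474-Var1 arrays above and both BT474-Var4 arrays below both Control arrays, and the difference between the variants passed limma's test. ESR1 probe A_33_P3379356 differed by -1.25 (adjusted p = 0.00563), SPDEF probe A_23_P111194 by -0.42 (adjusted p = 0.0109) and GATA3 probe A_33_P3360341 by -0.30 (adjusted p = 0.0167). In BT474-Var1 against Control no probe of these passed (adjusted p = 0.104, 0.342 and 0.0844), and the SPDEF arrays were only 0.01 apart. The GATA3 probe did not pass in BT474-Var4 against Control either (adjusted p = 0.155). Arrays did not overlap at 71.8% and 68.7% of all tested probes in BT474-Var1 and BT474-Var4 against Control. At neither of the other ESR1 probes were both BT474-Var1 arrays above both Control arrays. For SPDEF and GATA3, leaving out BT474-Var4 array B ended the call (-0.41 and -0.28, adjusted p = 0.0526 and 0.0722), and for GATA3 so did leaving out BT474-Var4 array A (-0.32, adjusted p = 0.0539) or BT474-Var1 array A (-0.26, adjusted p = 0.0690). Groups of 2 arrays are too small for a check on single outlying arrays.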

How the results depend on the processing

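Of 20 member calls over the 3 comparisons, 6 kept their direction and their side of the threshold under all 15 other settings: both PGR probes in BT474-Var4 against Control and against BT474-Var1, ELF3 in BT474-Var1 against Control, and ESR1 probe A_33_P3379356 between the variants. The 14 others were each lost under at least 1 setting, and all 14 with no filter on dim probes. With no filter, 58201 probes entered both the moderated fit and the adjustment. Probes at an unadjusted p under 0.05 then numbered 14029 in BT474-Var1 against Control, beside 14769 in the main fit. That setting left 1, 2 and 3 member probes past the threshold in BT474-Var1 and BT474-Var4 against Control and between the variants, beside 5, 7 and 8, and 9, 10 and 21 related genes, beside 33, 34 and 47, while the share of all tested probes past it went from 34.4%, 24.2% and 41.2% to 4.59%, 1.24% and 8.78%. With 1 array left out the member probes past the threshold numbered 3 to 5, 2 to 7 and 3 to 8 in the same order, and the related genes 14 to 32, 13 to 24 and 32 to 37, beside 13.096% to 29.5%, 4.71% to 17.2% and 25.4% to 33.6% of all tested probes. In both comparisons against Control, the upper ends of these ranges came only from leaving out an array of the third group, which was not compared. Leaving out an array of a compared group always gave lower counts and shares there. With the replicate letter as a block the counts were 5, 6 and 8 member probes and 30, 22 and 39 related genes, beside 27.5%, 15.4% and 35.0% of all probes. The block ended the SPDEF call in BT474-Var4 against Control and changed no other member call. Normexp gave 46, 50 and 58 related genes past the threshold, and eBayes with trend and robust estimation 49, 51 and 56, beside 46.0%, 34.2% and 57.6% and 43.9%, 35.9% and 49.5% of all probes. Signs turned only for differences near 0 that passed under no setting in which they turned. FOXA1 probe A_33_P3332997 in BT474-Var1 against Control went from -0.05 to 0.0099 with normexp, and to -0.14 to 0.032 with 1 array left out. Between the variants, TFAP2A probe A_33_P3378056 went from 0.03 to -0.012 with normexp and to -0.064 to 0.13 with 1 array left out, and TFAP2A probe A_33_P3361546 from 0.00 to -0.030 after quantile normalization and to -0.035 to 0.045 with 1 array left out. Differences that had not passed did so 9 times under another setting. The causes were not tested. The deposited table and the filter on all 6 arrays moved no member call.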

Other observations

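The arrays also held 15 probes for 10 RNAs named after the members, such as GATA3-AS1, TFAP2A-AS1 and lnc-PGR-1, antisense or neighboring noncoding transcripts. Of these, 7 probes were tested, and 5 were well above background on no array. Apart from the lnc-FOXA1-2 probe, the tested ones were dim, with group means of -4.07 to -1.71. The shares of all tested probes given beside them are not matched for level. In limma's test 0 of 7 passed in any of the 3 comparisons, in which 34.4%, 24.2% and 41.2% of all tested probes passed (BT474-Var1 and BT474-Var4 against Control and between the variants). At an unadjusted p under 0.05 there were 1, 3 and 0 of 7, beside 46.4%, 40.1% and 51.7% of all. The lowest adjusted p was 0.0812, for GATA3-AS1 probe A_33_P3227269 in BT474-Var4 against Control, where the group means were -1.71 in Control and -2.40 in BT474-Var4.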
